A study of Arabidopsis thaliana with 6 samples.

Results

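XTH genes encode xyloglucan endotransglucosylase/hydrolases, enzymes of the plant cell wall, and the transcripts of 10 of them were followed here in seedlings of *Arabidopsis thaliana*. The members were taken by gene identifier as *XTH4*, *XTH5*, *XTH6*, *XTH7*, *XTH9*, *XTH15*, *XTH16*, *XTH22*, *XTH24* and *XTH33*, which are 10 of the 33 XTH genes and 10 of the 37184 genes in the count tables. All 10 had counts in every library and passed the filter on low counts, as did 21705 genes in all. RNA-seq was performed on total RNA, depleted of rRNA, of whole seedlings aged 14 days. The control group was WT of the Columbia-0 (Col-0) accession, and the other group was the *nol12-4* line in the same background, which carries a T-DNA insertion in *AtNOL12* (AT1G11240), the gene for a nucleolar protein of ribosome biogenesis. Both groups grew on MS medium with sucrose in long days, without any further treatment, and each had 3 biological replicates with 1 library each. The mutant group is a single insertion line, so a change of this line outside *AtNOL12* cannot be told apart from an effect of the insertion.

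The libraries held 67444306 to 75001252 counts on genes in WT and 56627497 to 74162060 in *nol12-4*. Where the values of 3 libraries of a genotype are listed, they stand in the order of replicates 1, 2 and 3. *AtNOL12* itself had 663, 642 and 894 counts in WT and 1186, 770 and 2142 counts in *nol12-4*. These counts were not lower in the libraries labelled *nol12-4*, and a count over the whole gene does not tell an intact from an interrupted transcript, so they give no check of the labels; *nol12-4* is used below as the label of these libraries. A pair of libraries stood apart within their groups. In *nol12-4* replicate 3 the morning clock genes *LHY*, *CCA1* and *PRR9* had a summed level of 4.19 CPM (read counts per library size, adjusted with TMM factors), against 178.5 and 173.2 CPM in *nol12-4* replicates 1 and 2 and 3.085 to 6.488 CPM in WT. The evening gene *TOC1* had 120 CPM in *nol12-4* replicate 3, 14.7 and 13.1 CPM in replicates 1 and 2, and 126 to 141 CPM in WT. Over the log2 CPM of all tested genes, *nol12-4* replicate 3 was about as close to WT as to its own group. Its Pearson correlation was 0.9545, 0.9616 and 0.9538 with the WT libraries. With *nol12-4* replicates 1 and 2 it was 0.9573 and 0.9552, and these 2 correlated at 0.9766 with each other. WT replicate 3 differed from WT replicates 1 and 2 in the levels of several members described below. The fold changes and calls of the members are therefore given with and without these libraries where they decide them.

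Xyloglucan is the most abundant hemicellulose of the primary wall in most flowering plants other than grasses, where it coats cellulose microfibrils and connects them. XTH enzymes cut a xyloglucan chain and join the new end to another chain (endotransglucosylase activity) or, for a few members, to water (hydrolase activity), and are associated with wall loosening, wall strengthening and the incorporation of new xyloglucan during cell growth. The genes of the family differ in where and when they are expressed, and several respond to hormones, touch, light and shade.

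The catalytic site of the family is a short motif of a glutamate, any residue, an aspartate, any residue and a glutamate, in which the first glutamate acts as the nucleophile. It is shown here for the members to make visible how alike their coding sequences are where the reaction takes place. Each stretch of 45 bases is given 5′ to 3′ on the coding strand, with the 15 bases of the motif in capitals, and was read from the TAIR10.1 reference of RefSeq, whose nuclear chromosomes are those of TAIR10. All of them lie in the coding sequence, each within 1 exon. The stretch of *XTH33* is at chr1:3480300-3480344 on the minus strand, that of *XTH4* at chr2:2764481-2764525 on the plus strand and that of *XTH16* at chr3:8550586-8550630 on the plus strand. On chromosome 4, those of *XTH7* (chr4:17776848-17776892), *XTH15* (chr4:8137776-8137820) and *XTH24* (chr4:14820036-14820080) are on the minus strand and that of *XTH9* (chr4:1416526-1416570) is on the plus strand. On chromosome 5, those of *XTH5* (chr5:4475708-4475752) and *XTH22* (chr5:23307833-23307877) are on the minus strand and that of *XTH6* (chr5:26299604-26299648) is on the plus strand.
XTH4: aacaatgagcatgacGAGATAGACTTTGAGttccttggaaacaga
XTH5: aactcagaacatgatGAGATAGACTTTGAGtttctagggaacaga
XTH6: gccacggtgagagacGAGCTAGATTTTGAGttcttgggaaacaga
XTH7: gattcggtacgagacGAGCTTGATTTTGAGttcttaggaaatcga
XTH9: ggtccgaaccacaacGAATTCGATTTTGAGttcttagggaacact
XTH15: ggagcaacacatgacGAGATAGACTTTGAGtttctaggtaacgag
XTH16: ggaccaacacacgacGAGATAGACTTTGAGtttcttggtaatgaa
XTH22: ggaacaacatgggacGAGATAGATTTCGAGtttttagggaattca
XTH24: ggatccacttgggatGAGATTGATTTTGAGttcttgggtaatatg
XTH33: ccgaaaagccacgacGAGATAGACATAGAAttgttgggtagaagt

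The motif, searched with only a few hydrophobic residues allowed at its open positions, was found once in each member. Its 15 bases were identical in *XTH4*, *XTH5*, *XTH15* and *XTH16*. Within the 45 bases, *XTH15* and *XTH16* differed at 5 bases, the closest of all pairs of members, *XTH4* and *XTH5* at 8, *XTH6* and *XTH7* at 9 and *XTH22* and *XTH24* at 12. *XTH33* was the most distant member, with 18 to 24 bases different from the others. Over the whole translated coding sequence, identity was 85.8% between *XTH15* and *XTH16*, 77.9% between *XTH22* and *XTH24*, 76.7% between *XTH4* and *XTH5* and 75.1% between *XTH6* and *XTH7*, whereas *XTH33* shared 36.4% to 40.5% with the other members. The XTH genes outside the members were not in this comparison, and a member can have a closer relative among them. The coding sequences are spread over 2 exons in *XTH22*, 3 in *XTH15*, *XTH16* and *XTH24* and 4 in the other members. Only *XTH15* (chr4:8137020-8138392, minus strand) overlaps another annotated gene, AT4G14120 on the opposite strand, and reads were counted by strand.

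Of the 10 members, *XTH6*, *XTH7* and *XTH9* had higher levels in all 3 *nol12-4* libraries than in any WT library, and *XTH24* had lower levels in all 3. Among all genes tested, 14.5% were above WT in all *nol12-4* libraries and 11.6% were below. edgeR's quasi-likelihood test with Benjamini-Hochberg adjustment over all genes called none of the members at an adjusted p under 0.05, where it called 0.226% of genes higher (49 genes) and 0.0691% lower (15 genes). With library size alone as the scaling, the split over all genes was 376 higher and 51 lower. By an unadjusted p under 0.05, 4 members (*XTH6*, *XTH7*, *XTH9* and *XTH16*) were higher and *XTH24* alone was lower, against 12.1% and 7.91% of all genes. DESeq2, the tool used by the study, called *XTH6*, *XTH7* and *XTH9* higher and *XTH24* lower among 9 members with an adjusted p, against 6.2% and 3.21% of 24147 genes, and limma-voom called none. The members did not move together: 4 fold changes were above 0 and 6 below, with a median log2 fold change of −0.068 against −0.0091 over all tested genes. This small median changed sign with the processing: it was 0.60 without WT replicate 3, 0.037 without *nol12-4* replicate 1, 0.082 with limma-voom, 0.077 with a replicate block and 0.025 with library size alone as the scaling.

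**Figure D1:**
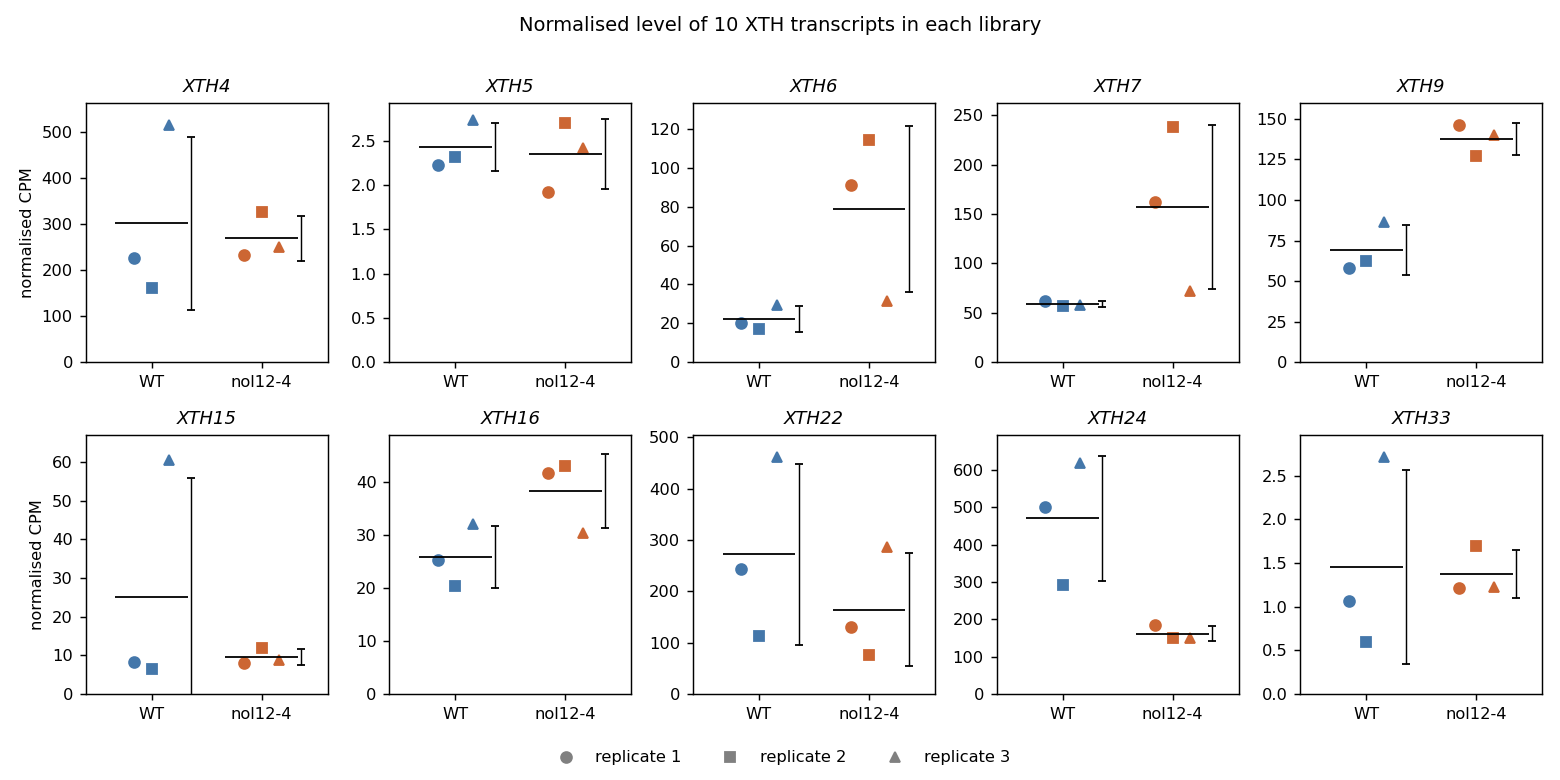
Normalised level (CPM, linear axis) of the 10 XTH transcripts in each of the 6 libraries, by genotype; symbols mark the replicate number, horizontal lines the group means and bars the SD (n = 3; the bar of WT for *XTH15* is cut at 0). *XTH9* and *XTH24* separate the genotypes in every library, *XTH6* and *XTH7* are far above WT only in *nol12-4* replicates 1 and 2, and *XTH4*, *XTH15* and *XTH33* have their highest value in WT replicate 3.

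*XTH9* was higher and *XTH24* lower in all 3 *nol12-4* libraries by about the same factor in each. *XTH9* (AT4G03210, chr4:1415617-1417444, plus strand) has been linked to cell expansion in shoot apices and in the cambium. It had 58.3, 62.3 and 86.6 CPM in WT and 146, 127 and 140 CPM in *nol12-4*. The groups did not overlap, and the *nol12-4* libraries varied 1.15-fold among themselves. The mean was 69.1 ± 15.3 CPM in WT and 138 ± 9.8 CPM in *nol12-4* (SD, n = 3 each), 2.0-fold higher, with a log2 fold change of 1.00 (SE 0.19). edgeR gave an unadjusted p of 0.00106 and an adjusted p of 0.069, and DESeq2 an adjusted p of 0.000467. Without WT replicate 3, the highest WT library, the log2 fold change was 1.19 and edgeR called the gene (adjusted p = 0.0231, where 0.812% of genes were called higher).

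*XTH24* (AT4G30270, chr4:14819192-14820595, minus strand), first described as the meristem-expressed gene *MERI5*, had the largest difference in CPM between the group means. Its level was 500, 291 and 620 CPM in WT and 185, 149 and 150 CPM in *nol12-4*. The highest *nol12-4* library lay below the lowest WT library. The mean was 470 ± 166 CPM in WT and 162 ± 20.6 CPM in *nol12-4* (SD, n = 3 each), a ratio of 0.343, and the log2 fold change was −1.54 (SE 0.29). DESeq2 called it lower (adjusted p = 3.8e-05), and edgeR gave an adjusted p of 0.0683 with an unadjusted p of 0.00102. Each *nol12-4* library alone was at 0.394, 0.317 and 0.319 of the WT mean, and *XTH9* was at 2.12, 1.84 and 2.02 times its WT mean in the same libraries. For each gene these ratios were of similar size in the 3 *nol12-4* libraries. The part of the differences in clock genes between libraries in the levels of *XTH9* and *XTH24* was not tested. DESeq2 called *XTH9* and *XTH24* whichever single library was left out, whereas edgeR called *XTH24* in none of these fits, with adjusted p between 0.0548 and 0.262. In whole seedlings, fewer cells of a type and less RNA per cell cannot be told apart for this or any other member.

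*XTH6* and *XTH7*, each the most identical member to the other, were high in *nol12-4* replicates 1 and 2 and close to WT in replicate 3. *XTH6* (AT5G65730, chr5:26298728-26300529, plus strand) had 20.3, 17.0 and 29.5 CPM in WT. In *nol12-4* it had 91.1, 114 and 31.5 CPM, that is 4.09-, 5.1- and 1.41-fold the WT mean. The third value lay just above WT replicate 3. The mean was 22.3 ± 6.48 CPM in WT and 78.7 ± 42.4 CPM in *nol12-4* (SD, n = 3 each), with a log2 fold change of 1.82 (SE 0.46). DESeq2 called it higher (adjusted p = 0.00179), and edgeR did not (adjusted p = 0.0995). Without *nol12-4* replicate 3 the log2 fold change was 2.19 (SE 0.26) and edgeR called it (adjusted p = 0.00856), in a fit that called 4.71% of all genes higher and 2.73% lower. With that library kept and *nol12-4* replicate 2 left out, DESeq2 no longer called it (adjusted p = 0.0632).

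*XTH7* (AT4G37800, chr4:17775370-17777445, minus strand) had an even level of 62.0, 57.2 and 57.8 CPM in WT. Its levels in *nol12-4* were 162, 238 and 72.1 CPM. The spread between mutant libraries was 3.3-fold, against 1.08-fold in WT. The mean was 59.0 ± 2.61 CPM in WT and 157 ± 83.1 CPM in *nol12-4* (SD, n = 3 each; log2 fold change 1.42, SE 0.39), a difference that DESeq2 called (adjusted p = 0.00755) and edgeR did not (adjusted p = 0.117). Leaving out *nol12-4* replicate 3 gave a log2 fold change of 1.76 (SE 0.20) and an adjusted p of 0.00807 in edgeR. The DESeq2 call was lost without WT replicate 1 (adjusted p = 0.0586), *nol12-4* replicate 1 (0.0654) or *nol12-4* replicate 2 (0.13). Without the last of these the log2 fold change was 0.98.

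*XTH16* (AT3G23730, chr3:8550037-8551403, plus strand) showed a similar order of libraries over a smaller range. It had 25.2, 20.3 and 32.0 CPM in WT and 41.7, 43.0 and 30.3 CPM in *nol12-4*. Here *nol12-4* replicate 3 lay within the WT range, so the groups overlapped. The mean was 25.8 ± 5.88 CPM in WT and 38.3 ± 7.0 CPM in *nol12-4* (SD, n = 3 each), and the difference passed neither edgeR (log2 fold change 0.57, SE 0.22, adjusted p = 0.205) nor DESeq2 (adjusted p = 0.177). DESeq2 called it without WT replicate 3 (adjusted p = 0.0265) and without *nol12-4* replicate 3 (adjusted p = 0.047).

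The libraries in which *XTH6*, *XTH7* and *XTH16* were highest were those with high morning clock genes. *LHY*, a transcription factor of the circadian clock that peaks around dawn, had 58.6, 49.5 and 0.97 CPM in *nol12-4* and 1.06 to 1.24 CPM in WT. Its partner *CCA1* had 96.8, 94.1 and 2.44 CPM in the same *nol12-4* libraries and 1.1 to 3.52 CPM in WT. The evening genes ran the other way, with a summed level of 53.46, 60.75 and 216.9 CPM in *nol12-4* and 207.4 to 315.2 CPM in WT, and *ELF4* was without a count in *nol12-4* replicates 1 and 2. The part of these differences in the levels of *XTH6*, *XTH7* and *XTH16* was not tested. In *nol12-4* replicate 3, *XTH6* was at 31.5 CPM against 29.5 CPM in the highest WT library, and *XTH7* at 72.1 against 62.0 CPM.

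**Figure D2:**
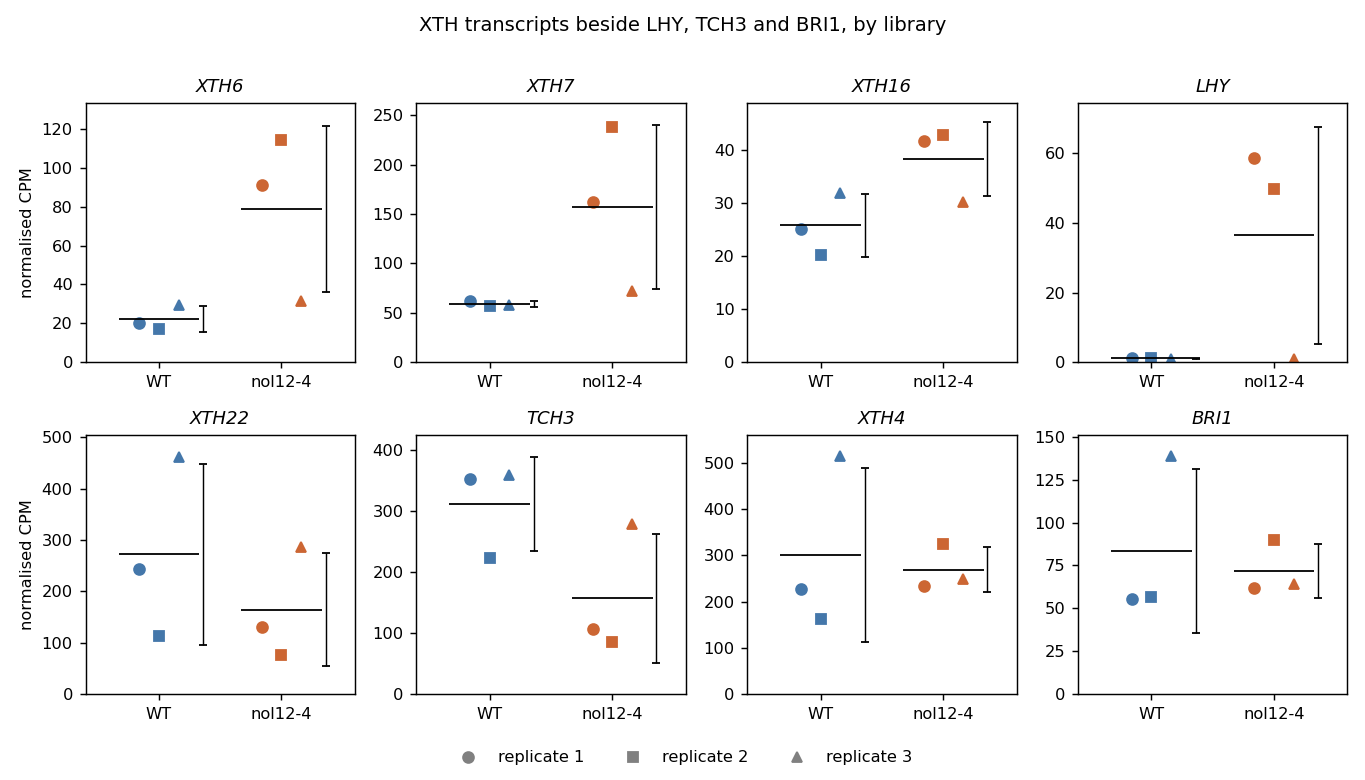
Normalised level (CPM, linear axes) of 5 XTH transcripts beside the morning clock gene *LHY*, the touch gene *TCH3* and the brassinosteroid receptor gene *BRI1* in each library; symbols mark the replicate number, horizontal lines the group means and bars the SD (n = 3). *LHY* is at 58.6 and 49.5 CPM in *nol12-4* replicates 1 and 2 only, the libraries with the highest *XTH6*, *XTH7* and *XTH16*; *TCH3* is lowest in the same libraries, and *XTH4* and *BRI1* are highest in WT replicate 3.

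For *XTH4*, *XTH15* and *XTH33* the comparison turned on WT replicate 3. *XTH4* (AT2G06850, chr2:2763449-2765743, plus strand), also known as *EXGT-A1*, has been linked with *XTH9* to the growth of xylem cells. It had 227, 162 and 515 CPM in WT and 233, 325 and 250 CPM in *nol12-4*. The WT libraries thus spanned the whole range of the mutant. The mean of 302 ± 188 CPM in WT did not differ from 270 ± 49.1 CPM in *nol12-4* beyond the spread (SD, n = 3 each; edgeR log2 fold change −0.16, SE 0.42, adjusted p = 0.857). Without WT replicate 3, where the level was 2.65-fold the mean of the other WT libraries, the log2 fold change turned to 0.47 (adjusted p = 0.296).

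*XTH15* (AT4G14130), known as a gene that responds to shade, had 8.14, 6.38 and 60.6 CPM in WT and 7.96, 11.8 and 8.86 CPM in *nol12-4*. A single library therefore held a level 8.35-fold that of the mean of the other WT libraries, and the other 5 libraries lay together. The log2 fold change of −1.39 (SE 0.81; edgeR adjusted p = 0.381) became 0.39 without it (adjusted p = 0.353). DESeq2 set the gene aside for an outlying count and gave no adjusted p. *XTH33* (AT1G10550, chr1:3479066-3481041, minus strand), which encodes a protein predicted to be anchored in the membrane, followed a similar order at a low level. It had 1.06, 0.599 and 2.71 CPM in WT and 1.21, 1.69 and 1.22 CPM in *nol12-4*, from 40 to 182 counts in a library. The fold change was near 0 (log2 −0.087, SE 0.54, edgeR adjusted p = 0.946), and without WT replicate 3 it was 0.72 (adjusted p = 0.309).

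WT replicate 3 was also the highest library for several genes of brassinosteroids, the steroid hormones that promote cell expansion, and of xyloglucan trimming. *BRI1*, the brassinosteroid receptor, had 139 CPM there and 55.3 to 90.1 CPM in the other 5 libraries. *CPD*, an enzyme of brassinosteroid synthesis, had 103 CPM there and 32.5 to 49.4 CPM elsewhere. *BAS1*, an enzyme of brassinosteroid inactivation, had 12.7 CPM there and 4.75 to 9.31 CPM elsewhere. *XYL1*, an α-xylosidase that removes xylose from xyloglucan, had 286 CPM in WT replicate 3 and 136 to 188 CPM elsewhere, and the β-galactosidase *BGAL10* had 98.8 CPM against 11.6 to 36.7 CPM. These genes thus shared their highest library with *XTH4*, *XTH15*, *XTH22*, *XTH24* and *XTH33*. Not all brassinosteroid genes did. The synthesis gene *BR6OX2* had 19.5 CPM in WT replicate 3 and 38.1 CPM in *nol12-4* replicate 1. The transcription factor gene *BES1* had 48.5 CPM in WT replicate 3 and 66.6 CPM in *nol12-4* replicate 2. Of 7 brassinosteroid genes none was called by edgeR or DESeq2, and none had an unadjusted p under 0.05 in edgeR; their median log2 fold change was −0.13. Without *nol12-4* replicate 3, DESeq2 called 1 of them higher, in a fit that called 1993 of 23397 genes higher. What set WT replicate 3 apart was not tested.

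*XTH22* (AT5G57560, chr5:23307006-23308680, minus strand) is the touch gene *TCH4*, whose transcript accumulates within minutes of mechanical stimulation and after heat or brassinosteroid. Its levels were 243, 112 and 461 CPM in WT and 130, 76.5 and 287 CPM in *nol12-4*. It varied widely in both groups, 4.12-fold within WT and 3.75-fold within *nol12-4*. The mean of 272 ± 176 CPM in WT and that of 165 ± 109 CPM in *nol12-4* overlapped within the spread (SD, n = 3 each; log2 fold change −0.72, SE 0.61, edgeR adjusted p = 0.536, DESeq2 0.474). Its size depended on which library was left out, from −0.11 without WT replicate 3 to −1.40 without *nol12-4* replicate 3, and no fit called it.

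The calmodulin-like touch gene *TCH3* had 353, 223 and 358 CPM in WT and 107, 85.0 and 278 CPM in *nol12-4*. As for *XTH22*, WT replicate 2 was the lowest WT library and *nol12-4* replicate 3 the highest of the mutant. The calmodulin gene *CAM1*, known as *TCH1*, had 71.9 to 74.3 CPM in WT and 53.3, 43.1 and 75.5 CPM in *nol12-4*. *TCH2*, another calmodulin-like gene, differed from them, with 42.8, 29.4 and 18.9 CPM in WT and 23.5, 20.7 and 37.1 CPM in *nol12-4*, so that its lowest library was WT replicate 3. None of the 3 touch genes beside *XTH22* was called by either tool, and none had an unadjusted p under 0.05 in edgeR. Without *nol12-4* replicate 3, edgeR called 1 of them lower and DESeq2 2. In these fits edgeR called 601 of 22033 genes lower and DESeq2 1574 of 23397. The libraries *nol12-4* replicates 1 and 2, where *TCH3* and *CAM1* were lowest, are those with high *LHY*, and the part of this in the level of *XTH22* was not tested.

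*XTH5* (AT5G13870, chr5:4474922-4477090, minus strand), the member most identical to *XTH4*, varied little between libraries. It had 2.23, 2.32 and 2.73 CPM in WT and 1.92, 2.70 and 2.42 CPM in *nol12-4*, from 141 to 187 counts. Means of 2.43 ± 0.268 and 2.35 ± 0.397 CPM (SD, n = 3 each) did not differ beyond the spread (log2 fold change −0.049, SE 0.24, edgeR adjusted p = 0.928), and the sign of this small value changed with the scaling (0.053 with library size alone and 0.0017 with upper-quartile factors).

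Levels of different genes were compared per kilobase of exon. In WT the order of mean levels was *XTH24* with 389 ± 137 CPM per kb, *XTH4* with 187 ± 116, *XTH22* with 171 ± 111, *XTH7* with 45.8 ± 2.03, *XTH9* with 45.3 (range 38.2 to 56.7), *XTH16* with 21.2 ± 4.84, *XTH15* with 20.7 ± 25.5, *XTH6* with 15.2 ± 4.41, *XTH5* with 1.26 ± 0.139 and *XTH33* with 1.21 ± 0.921 (SD, n = 3). Neighbours in this order overlapped between libraries except at 3 steps, from *XTH22* to *XTH7*, from *XTH9* to *XTH16* and from *XTH6* to *XTH5*. In *nol12-4* the order was *XTH4* with 167 ± 30.4 CPM per kb, *XTH24* with 134 ± 17.0, *XTH7* with 122 ± 64.5, *XTH22* with 103 ± 68.7, *XTH9* with 90.3 ± 6.42, *XTH6* with 53.6 ± 28.9, *XTH16* with 31.5 ± 5.75, *XTH15* with 7.9 ± 1.66, *XTH5* with 1.22 ± 0.207 and *XTH33* with 1.14 ± 0.229. Each neighbouring pair among the first 5 overlapped between libraries, and *XTH9* stood above *XTH6*, *XTH16* above *XTH15* and *XTH15* above *XTH5* in every library. *XTH24* ranked first of the members in all 3 WT libraries, and in *nol12-4* the first rank was held by *XTH24* in replicate 1, *XTH4* in replicate 2 and *XTH22* in replicate 3.

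The make-up of the XTH transcript pool, the summed CPM on all 33 XTH genes, was compared with its size. The pool was 1433, 979.5 and 2173 CPM in WT and 1433, 1499 and 1281 CPM in *nol12-4*. Its size overlapped between groups, with WT at both ends. *XTH24* made up 34.9%, 29.7% and 28.5% of the pool in WT and 12.9%, 9.95% and 11.7% in *nol12-4*. *XTH9* made up 3.98% to 6.36% in WT and 8.48% to 10.9% in *nol12-4*. The groups did not overlap in either share. *XTH7* took 2.66% to 5.84% of the pool in WT and 11.3%, 15.9% and 5.63% in *nol12-4*, so its share in *nol12-4* replicate 3 was within the WT range. Taken as 1 set, the 10 members held 74.7% to 85.9% of the pool in WT and 69.9% to 76.0% in *nol12-4*, and the other 23 XTH genes held the rest.

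**Figure D3:**
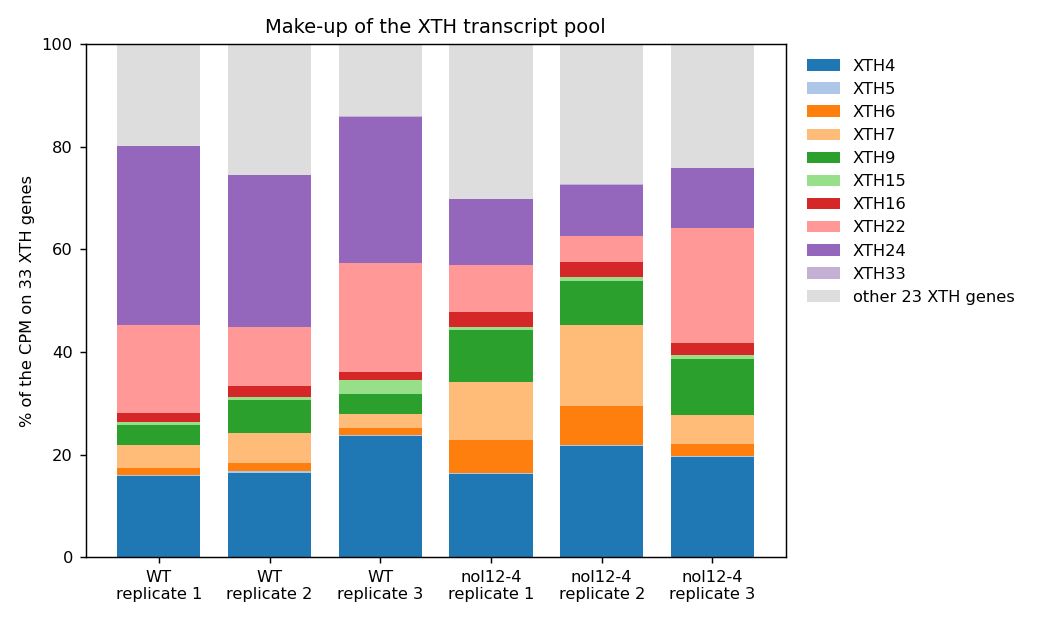
Share of each of the 10 XTH members, and of the other 23 XTH genes together, in the summed CPM on all 33 XTH genes, in percent, with 1 stacked bar per library. The *XTH24* segment is 28.5% to 34.9% in WT and 9.95% to 12.9% in *nol12-4*; the *XTH6* and *XTH7* segments are widest in *nol12-4* replicates 1 and 2.

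The 4 pairs of members with the highest identity were compared by their log2 ratio of levels per length in each library. An exact two-sided permutation test was run over the libraries, for which 3 against 3 allows no p below 0.1. The ratio of *XTH6* to *XTH7* was −1.63 ± 0.42 in WT and −1.22 ± 0.18 in *nol12-4*, a difference of 0.41 (exact p = 0.3, 0.4 after Benjamini-Hochberg adjustment over 4 pairs). *XTH4* exceeded *XTH5* by 7.04 ± 0.73 in WT and 7.10 ± 0.13 in *nol12-4* (exact p = 0.9). The ratio of *XTH15* to *XTH16* was −1.62, −1.66 and 0.93 in WT and −2.38, −1.86 and −1.76 in *nol12-4* (exact p = 0.1, adjusted 0.4). This pair has the most similar coding sequences of the members, and WT replicate 3 was the library in which *XTH15* exceeded *XTH16*. For *XTH22* and *XTH24* the ratio was −1.34 ± 0.48 in WT and −0.57 ± 0.99 in *nol12-4* (exact p = 0.3, adjusted 0.4).

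As a description over the 6 libraries, the XTH gene most like each member was found by the correlation of log2 CPM. *XTH6* and *XTH7* were most like each other (Pearson r = 0.96, Spearman rho = 0.94), and *XTH16* was most like *XTH6* (r = 0.95, rho = 0.94). *XTH4* and *XTH33* were most like each other (r = 0.99, rho = 1.0), and *XTH15* and *XTH5* were both most like *XTH4* (r = 0.93 and 0.64). *XTH9* was most like *XTH17* (r = 0.91), *XTH22* most like *XTH30* (r = 0.98) and *XTH24* most like *XTH25* (r = 0.87, rho = 0.54). All these points share the same libraries, and the genotype difference and the libraries that stand apart enter every one of them.

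Promoter sequences were searched for 4 short motifs on both strands, in the window from 250 bases before to 50 bases after the annotated start. The motifs were the G-box CACGTG, the evening element AAAATATCT, the CCA1-binding site AAAAATCT and the brassinosteroid response element. The last was searched in the open form CGTGNG, with any base at N. These patterns occur in 7.68%, 2.82%, 7.88% and 15.24% of the windows of 27443 protein-coding genes. The only match among the 10 members was a CCA1-binding site in *XTH22*, in capitals in its window at chr5:23308631-23308930 (minus strand), with its first base 54 bases before the start.
XTH22: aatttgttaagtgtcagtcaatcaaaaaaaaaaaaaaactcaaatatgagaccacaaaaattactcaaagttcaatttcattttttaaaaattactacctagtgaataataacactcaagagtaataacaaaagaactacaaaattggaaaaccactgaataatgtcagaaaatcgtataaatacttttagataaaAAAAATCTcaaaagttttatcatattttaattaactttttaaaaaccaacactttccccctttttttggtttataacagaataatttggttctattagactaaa
With 1 match in all, no motif overlapped another. No match was found in the windows of *XTH6*, *XTH7* and *XTH16*, which says only that these letters are not in them.

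Among the other 23 XTH genes, 10 were called higher and 1 lower by DESeq2 (21 with an adjusted p), where it called 6.2% and 3.21% of all genes. With 1 library left out, DESeq2 called 6 to 10 higher and 0 to 1 lower, in fits that called 554 to 1993 genes higher and 201 to 1574 lower. edgeR called none of the 20 it tested, of which 10 were higher and 2 lower by unadjusted p, against 12.1% and 7.91% of all genes. Without *nol12-4* replicate 3, edgeR called 9 of them higher, in the fit that called 4.71% of all genes higher. Their median log2 fold change was 0.97, and 11 genes were above WT in all *nol12-4* libraries and 2 below, against 14.5% and 11.6% of all genes. *XTH12*, a gene of the root, had 1.56, 3.09 and 1.45 CPM in WT and 15.4, 15.4 and 6.75 CPM in *nol12-4*, with the highest log2 fold change of the family (2.62; edgeR adjusted p = 0.0617, DESeq2 1.85e-07). *XTH31*, which encodes an enzyme with hydrolase activity, had 7.35, 13.2 and 5.04 CPM in WT and 37.8, 54.9 and 27.0 CPM in *nol12-4* (log2 fold change 2.23, DESeq2 adjusted p = 5.38e-06). The remaining genes that DESeq2 called higher were *XTH13*, *XTH14*, *XTH17*, *XTH19*, *XTH20*, *XTH21*, *XTH26* and *XTH32*, with log2 fold changes from 1.06 to 2.11. *XTH25* was the one called lower (−2.01), although its libraries overlapped and the call held with 1 library left out only where that was WT replicate 2 or *nol12-4* replicate 3, and *XTH11* was lower in all *nol12-4* libraries (−1.80) from under 1 CPM. The other XTH genes with the highest level per length beside *XTH31*, *XTH27* and *XTH28*, had log2 fold changes of 0.052 and −0.29 and were called by neither tool.

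*XTH24* and *XTH22* lie next to other XTH genes on the chromosome, most of which had fold changes of the opposite sign. *XTH24* lies beside *XTH18* and *XTH19*, whose log2 fold changes were 0.36 (SE 0.32) and 1.07 (SE 0.32) against −1.54 (SE 0.29) of *XTH24*. *XTH22* lies beside *XTH25*, *XTH13* and *XTH12*, with log2 fold changes of −2.01 (SE 0.70), 2.09 (SE 0.51) and 2.62 (SE 0.43) against −0.72 (SE 0.61). Neither tool called *XTH18* or *XTH22*, and the libraries of *XTH18*, *XTH22* and *XTH25* overlapped between genotypes, so the sign of these estimates is uncertain.

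**Figure D4:**
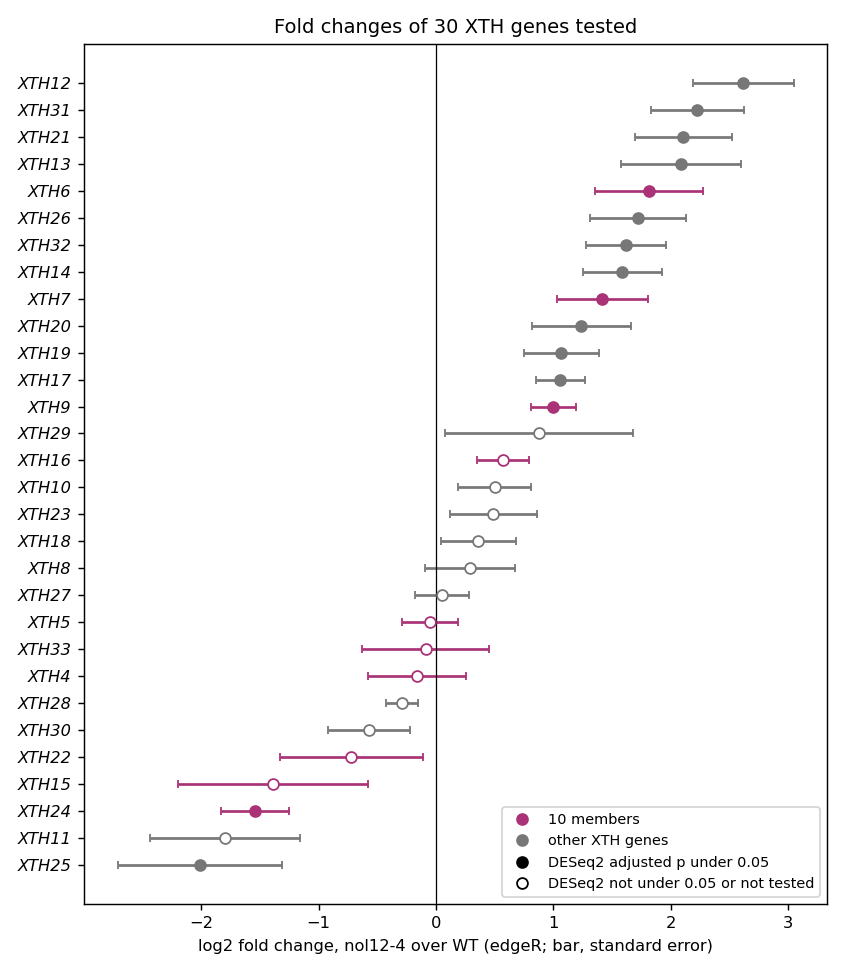
Log2 fold change (*nol12-4* over WT, edgeR) of the 30 XTH genes tested, with the standard error as a bar; the 10 members are in colour, and filled points have a DESeq2 adjusted p under 0.05. *XTH6*, *XTH7* and *XTH9* are filled on the right and *XTH24* on the left, and most filled points on the right are other XTH genes, led by *XTH12* at 2.62.

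Markers of root, leaf and dividing cells were read in the same libraries. Over all genes tested, 14.5% were above WT in all *nol12-4* libraries. DESeq2 called 6.2% of all genes higher, and edgeR 0.226%, with 12.1% higher by unadjusted p. With 1 library left out, DESeq2 called 554 to 1993 genes higher, of 23324 to 23944 tested. Of 8 root markers, *CASP1*, *EXPA7*, *EXPA18*, *COBL9* and *RHD2* were above WT in all *nol12-4* libraries, with log2 fold changes of 0.95 to 1.39, and DESeq2 called 3 of them (0 to 4 called higher with 1 library left out). *EXPA7*, an expansin of root hairs, had 1.8, 1.93 and 0.94 CPM in WT and 3.63, 4.73 and 3.65 CPM in *nol12-4*. The root marker with the highest level, the phosphate transporter gene *PHT1;1*, went the other way (log2 fold change −0.50). It had 51.5, 47.6 and 23.1 CPM in WT and 26.8, 34.2 and 25.4 CPM in *nol12-4*. Without WT replicate 3, DESeq2 called 1 root marker lower, in a fit that called 1134 of 23944 genes lower. The summed level of the root markers, dominated by *PHT1;1*, ranged from 32.62 to 65.53 CPM in WT and from 48.37 to 70.1 CPM in *nol12-4*, and *NRT2.1* was without a count in WT replicate 1. All 5 markers of dividing cells were above WT in every *nol12-4* library, with a summed level of 29.73 to 33.7 CPM in WT and 60.26 to 68.62 CPM in *nol12-4*. DESeq2 called all 5, also with any 1 library left out, and edgeR called *KNOLLE* alone, a syntaxin of cytokinesis (log2 fold change 1.09, adjusted p = 0.0341), a call that was lost when replicate 1 or 2 of either genotype was left out. The 5 leaf markers summed to 4928 to 6019 CPM in WT and 7138 to 12430 CPM in *nol12-4*, with *RBCS1A*, *LHCB1.1* and *RCA* above WT in all *nol12-4* libraries. DESeq2 called *RCA* alone of them (adjusted p = 0.0142), with 0 to 2 leaf markers called when 1 library was left out, and edgeR called none (3 higher and 0 lower by unadjusted p). The part of these cell types in the levels of the XTH genes was not tested.

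Genes that make and trim xyloglucan were read beside the XTH genes. Over all genes, DESeq2 called 6.2% higher and 3.21% lower, and edgeR 0.226% and 0.0691%. By unadjusted p in edgeR the shares were 12.1% and 7.91%. Of 13 synthesis genes, DESeq2 called the xylosyltransferase gene *XXT3* (log2 fold change 1.40, adjusted p = 0.0249) and the galactosyltransferase gene *XLT2* (1.13, adjusted p = 0.0336) higher and none lower, and edgeR called none (2 higher and 0 lower by unadjusted p). With 1 library left out, DESeq2 called at most 1 synthesis gene higher, and none without WT replicate 2, *nol12-4* replicate 1 or *nol12-4* replicate 2. The 6 DESeq2 fits with 1 library left out called 554 to 1993 genes higher. The median log2 fold change of the synthesis genes was 0.12. Of the 13, 4 were above WT in all *nol12-4* libraries and 0 below, against 14.5% and 11.6% of all genes. The glucan synthase gene *CSLC4*, which makes most of the xyloglucan backbone, had 32.0 to 44.1 CPM in WT and 32.1 to 41.2 CPM in *nol12-4* (log2 fold change −0.049). Among the 3 trimming genes, DESeq2 called *BGAL10* lower (−1.45, adjusted p = 0.0491), with 36.7, 36.5 and 98.8 CPM in WT and 11.6, 14.7 and 36.6 CPM in *nol12-4*, so that the groups overlapped. This call was kept when WT replicate 2 or *nol12-4* replicate 3 was left out and lost in the other 4 of the 6 fits that each leave out 1 library. The α-fucosidase gene *AXY8* went the other way (log2 fold change 0.61, adjusted p = 0.185 in edgeR and 0.141 in DESeq2). It had 22.6, 22.5 and 33.7 CPM in WT and 38.8, 48.0 and 33.4 CPM in *nol12-4*, and its groups overlapped too. By unadjusted p in edgeR, 1 trimming gene was higher and 1 lower. Without WT replicate 3, DESeq2 called 1 higher, in a fit that called 1619 of 23944 genes higher. The difference between the lists was not tested.

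Leaving out single libraries showed which members depended on one. The log2 fold change stayed above 0 in all 6 such edgeR fits for *XTH6*, *XTH7*, *XTH9* and *XTH16* and below 0 for *XTH22* and *XTH24*. *XTH4*, *XTH15* and *XTH33* turned positive without WT replicate 3, and *XTH5* without WT replicate 3 (0.043) or *nol12-4* replicate 1 (0.078). In these fits edgeR called members only without *nol12-4* replicate 3 (*XTH6*, *XTH7* and *XTH9*) and without WT replicate 3 (*XTH9*). When replicate 1 or 2 of either genotype was left out it called no gene at all, and an unadjusted p under 0.05 was then reached by 1816 to 2321 genes higher and 934 to 1400 genes lower in *nol12-4*, while DESeq2 called 554 to 1139 genes higher and 201 to 444 lower.

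**Figure D5:**
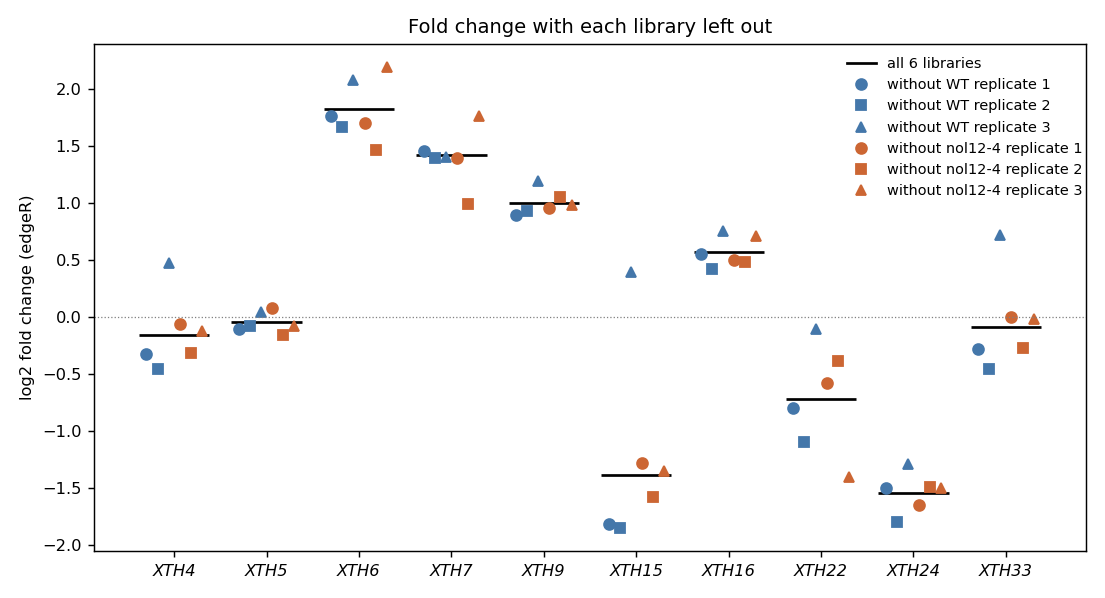
Log2 fold change (*nol12-4* over WT, edgeR) of the 10 members from all 6 libraries (black lines) and with each library left out (symbols; colour and shape give the library left out). *XTH9* stays between 0.89 and 1.19 and *XTH24* between −1.80 and −1.29, whereas *XTH15* goes from −1.39 to 0.39 without WT replicate 3.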

How the data were processed

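Per the labels, total RNA of 14-day-old seedlings was depleted of rRNA and made into stranded libraries. The authors aligned the reads to TAIR10 with HISAT2 (version 2.0.4), sorted them with SAMtools and counted them by strand per Araport11 gene with htseq-count (HTSeq version 0.6.0), with no minimum alignment quality. The deposited values are raw counts per gene, without normalization. Summary lines that name no gene held 20.57% to 25.05% of a library (10.27% to 12.08% not uniquely aligned) and were left out. Of 37184 identifiers, 36899 (99.2%) had an exon length in the RefSeq annotation of TAIR10.1.

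Counts were tested with the quasi-likelihood test of edgeR 4.0.16 under R 4.3.3, using TMM factors, filterByExpr, robust glmQLFit and glmQLFTest, two-sided, genotype as the only term, Benjamini-Hochberg adjustment over all genes at 0.05. Standard errors were the absolute log2 fold change over the root of the F statistic. The same counts were also run through DESeq2 1.42.0 and the voom method of limma 3.58.1, and through edgeR with other scalings and filters, no robust estimation, organelle and rRNA genes left out, a replicate block and each library left out. DESeq2 with each library left out, and both tools without both replicates 3, were added after seeing the data. The procedure was tested on simulated counts in which no library stood apart from its group. That test therefore does not cover the dependence on single libraries seen here. A limit of 3 counts is 0.04 to 0.053 CPM, for counting error only. No 2 libraries agreed within sampling noise.

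Named are the 10 members, genes of the other lists whose libraries did not overlap with an unadjusted edgeR p under 0.05, the other XTH genes with the 3 highest levels per length, and the XTH gene most like each member. LHY, CCA1, PRR9, TOC1, ELF4, TCH2, TCH3, CAM1, BRI1, CPD, BAS1, BR6OX2, BES1, XYL1, BGAL10, AXY8, CSLC4, PHT1;1, NRT2.1, XTH18 and XTH25 were named after their values were seen. The members and lists were chosen with earlier results of these data known.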

Additional observations from a re-analysis of the deposited data

How the results depend on the processing

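With 3 libraries a group, the calls depended on the tool and on a few libraries, and the cause was not tested. edgeR called 0 members higher and 0 lower. DESeq2 called 3 higher and 1 lower, library size alone gave 1 higher, and leaving out both replicates 3 gave 4 higher and 1 lower in edgeR and in DESeq2, in fits that called 2319 genes higher and 2065 lower of 21966 (edgeR) and 2534 higher and 2207 lower of 23651 (DESeq2). Leaving out 1 library gave 0 to 3 higher in edgeR (3 without *nol12-4* replicate 3, 1 without WT replicate 3) and 1 to 4 higher and 1 lower in DESeq2. Of all 33 *XTH* genes, edgeR called 0 higher and 0 lower; DESeq2 called 13 and 2, library size alone 7 higher, no filter on low counts 1 higher (*XTH12*), and leaving out both replicates 3 gave 15 higher and 1 lower with either tool. Leaving out 1 library gave 0 to 12 higher in edgeR, and 7 to 14 higher (10, 12 and 13 without WT replicates 1, 2 and 3, and 10, 7 and 14 without *nol12-4* replicates 1, 2 and 3) and 1 to 2 lower in DESeq2. The calls over all genes moved as well. edgeR called 49 higher and 15 lower of 21705, and 376 and 51 with library size alone. No filter gave 142 and 41 of 27290, and DESeq2 1498 and 776 of 24147. With 1 library left out, edgeR called 0 to 1038 genes higher and 0 to 601 lower. DESeq2 then called 554 to 1993 higher and 201 to 1574 lower. The members' median log2 fold change of −0.068 was −0.27 to 0.60 with 1 library left out in edgeR and −0.29 to 0.60 in DESeq2, and without both replicates 3 it was 0.66 in edgeR and 0.67 in DESeq2. It was 0.082 with limma-voom, 0.077 with the block and 0.025 with library size alone. Library size alone moved the median of all genes from −0.0091 to 0.092.

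The sign turned for 4 members without a call, whose values with 1 library left out in edgeR ran from −0.46 to 0.47 for *XTH4*, −0.16 to 0.078 for *XTH5*, −1.85 to 0.39 for *XTH15* and −0.46 to 0.72 for *XTH33*. *XTH4* was at 0.0054 with limma-voom, 0.47 without WT replicate 3 in both tools, and 0.52 (edgeR) and 0.53 (DESeq2) without both replicates 3. *XTH5* was at 0.053 with library size alone and 0.0017 with upper-quartile factors, at 0.043 and 0.078 in edgeR and 0.04 and 0.069 in DESeq2 without WT replicate 3 and *nol12-4* replicate 1, and at 0.02 and 0.023 without both replicates 3. *XTH15* was at 0.39 without WT replicate 3 in both tools, and at 0.44 and 0.45 without both replicates 3. *XTH33* was at 0.16 with limma-voom, 0.72 without WT replicate 3 in both tools, and 0.80 and 0.81 without both replicates 3. Over 24 alternatives the other members kept their sign, between 1.45 and 2.46 for *XTH6*, 0.98 and 1.76 for *XTH7*, 0.87 and 1.19 for *XTH9*, 0.41 and 0.90 for *XTH16*, −1.40 and −0.11 for *XTH22*, and −1.81 and −1.24 for *XTH24*.

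With replicate number as a block, edgeR called 0 members and 1 gene in all, and *XTH4* was at 0.0022 and *XTH33* at 0.15. *XTH22* was at −0.71 with an SE of 0.17 (edgeR adjusted p = 0.133), against an SE of 0.61 without the block. By unadjusted p under 0.05 in that fit, 3 members were higher and 2 lower, against 2567 and 1707 of 21705 genes. Deviations of same-numbered libraries from their group means correlated at 0.164, −0.113 and 0.035, so the numbers were not taken to pair the libraries. *XTH33* (40 to 182 counts) and *XTH5* (141 to 187 counts) had the fewest counts.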
